A study of Mus musculus with 19 samples.

Results

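Endothelial cells line every vessel of the heart, and 34 genes that define these cells or carry their signals are described here in hearts of mice given a dysbiotic or a normal gut microbiome. The genes were taken by name from the deposited expression table, which holds 29726 genes, and all 34 were found there. They fall into 9 junction and surface proteins, 5 genes of VEGF and angiopoietin signalling, 7 other receptors and Notch genes and 5 transcription factors. The rest are 4 secreted and matrix proteins, counting the membrane protein Clec14a with them, and 4 enzymes, channels and intracellular regulators. All 34 passed the filter of at least 1 FPKM in at least 4 libraries, as did 10866 genes in total. FPKM is a fragment count scaled to transcript length and library size, so that levels can be compared between genes.

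The study made 19 poly(A)-selected RNA-seq libraries, each from a piece of heart of 1 mouse. The mice were C57BL/6NTac of wild-type genotype, raised germ-free and 2 months old. Dysbiotic microbiome (DM) came from Il10-/- donors, which lack the cytokine interleukin-10 and are prone to colitis, and normal microbiome (NM) from wild-type donors. The groups were 5 female DM mice (F_DM), 5 female NM mice (F_NM), 5 male DM mice (M_DM) and 4 male NM mice (M_NM). No germ-free control group enters the comparisons. The labels give no cage, extraction or sequencing batch, so p-values measure the spread between these mice, and a cage or batch that follows the groups cannot be told apart from the microbiome. The labels name the cells as cardiocytes, but the libraries held whole tissue: 8 cardiomyocyte markers summed to 12896 to 17166 FPKM, and 6 endothelial markers (Pecam1, Cdh5, Kdr, Tie1, Emcn and Egfl7) to 90.7 to 114 FPKM. The depth of each library is unknown, since FPKM carry no counts. Genes of the mitochondrial genome took 51.1% to 57.4% of the FPKM of a library. Liver transcripts such as Alb, which summed to 0.299 to 714 FPKM, varied between libraries of the same group.

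Endothelial cells hold on to each other through VE-cadherin and claudin junctions and receive growth and stability signals through the VEGF receptors and the TIE receptors. Factors of the ETS and SOX families keep their genes on, and Notch, apelin, sphingosine phosphate and nitric oxide signals adjust vessel growth, barrier and tone. In the heart most of these cells form capillaries that pass fatty acids from the blood to the cardiomyocytes.

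Levels spanned a wide range, as the plot of all members by library shows. Aqp1, the water channel of capillary endothelium, averaged 130 FPKM over the 19 libraries and made up 27.3% of the members' summed FPKM. Eng, a co-receptor for TGF-beta family ligands, followed with 46.1 FPKM, ahead of the junction proteins Pecam1 with 29.3 FPKM and Cdh5, which is VE-cadherin, with 26.9 FPKM. At the low end stood Sox17, an arterial transcription factor, with 1.67 FPKM and the receptor Notch1 with 1.79 FPKM. In all, 13 members averaged over 10 FPKM, 12 lay between 5 and 10 FPKM and 9 were under 5 FPKM, and the median was 6.54 FPKM against 3.76 FPKM over all genes tested. Many neighbours in this order were too close to separate: Esam with 16.0 FPKM and Podxl with 15.6 FPKM, or Vwf with 3.11 FPKM and Ednrb with 3.09 FPKM, differed by less than their within-group spread.

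**Figure D1:**
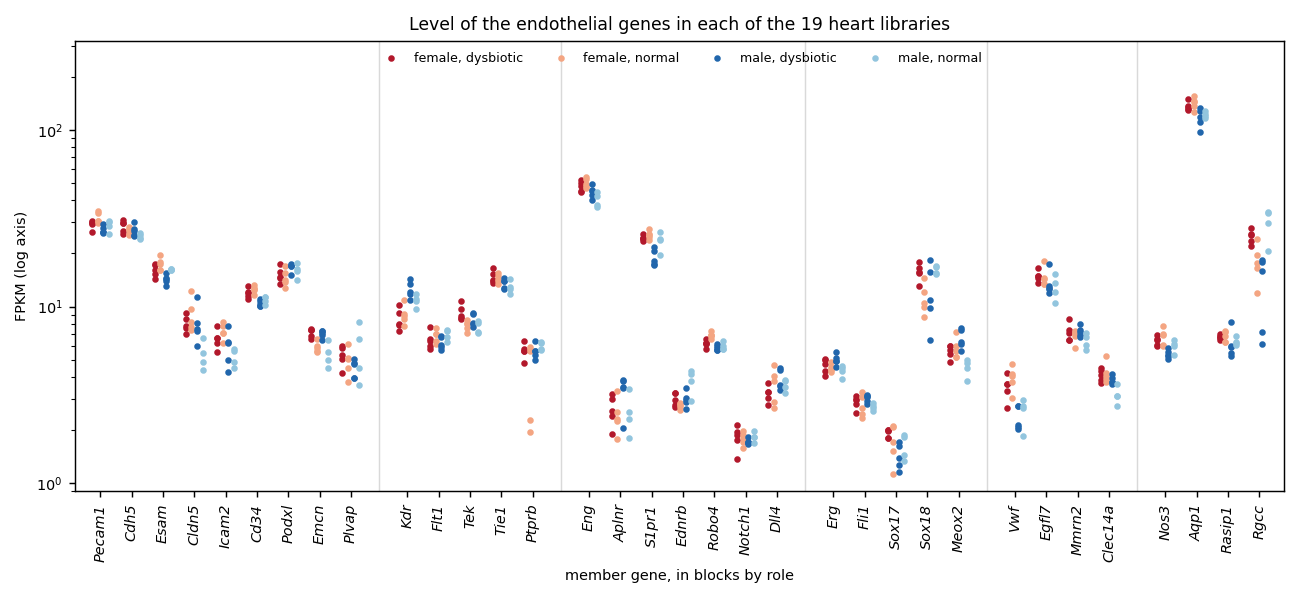
FPKM of the 34 endothelial genes on a log axis, with 1 point per library and the groups F_DM, F_NM, M_DM and M_NM from left to right within each gene; vertical lines separate the role groups. Aqp1 stands highest at 97.8 to 155 FPKM, and Ptprb shows 2 F_NM points near 2 FPKM, below all its other points.

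Whether the dysbiotic microbiome changed these genes was asked over both sexes, within each sex, and as a difference between the sexes in the response. Over both sexes, 2 of the 34 members were higher in DM hearts than in NM hearts, namely Emcn and Tek, and 0 were lower by limma on log2(FPKM + 1) at an adjusted p of 0.05. Among all genes tested 5.67% passed, 3.34% higher and 2.33% lower. After median-ratio scaling of the libraries, 2 members were higher and 2 lower, and over all genes 366 were higher and 386 lower, against 363 higher and 253 lower without it. At an unadjusted p under 0.05 by limma there were 10 members, and 1889 of the 10866 genes tested. The members' median log2 change of 0.01 lay close to the 0.02 of all genes. Signs were mixed: 19 had positive and 15 negative log2 changes, and 31 of the 34 were within 0.2 of 0 on the log2 scale. In bulk tissue, fewer cells of a type and less RNA per cell cannot be told apart.

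Emcn encodes endomucin, a sialomucin on the luminal face of capillary and venous endothelium. Its levels were 7.41, 6.83, 6.57, 7.48 and 7.40 FPKM in the F_DM hearts, against 5.96, 6.52, 5.50, 5.85 and 5.60 FPKM in the F_NM hearts. In males they were 6.44, 6.93, 7.24, 7.26 and 7.11 FPKM in the M_DM hearts, against 6.45, 5.01, 5.56 and 4.51 FPKM in the M_NM hearts. Every F_DM heart was above every F_NM heart, and among males only 1 M_NM heart reached into the M_DM range. Emcn averaged 7.07 ± 0.363 FPKM over the 10 DM hearts and 5.66 ± 0.639 FPKM over the 9 NM hearts (SD), a ratio of 1.25. The log2 change was 0.29 ± 0.05 (SE) with an adjusted p of 0.00101 by limma, and 9 of the 10 DM hearts were above all NM hearts. The call was kept in all 32 alternatives run, with adjusted p between 0.000119 and 0.00570. In females alone the log2 change was 0.24 ± 0.07 with an adjusted p of 0.0551, and in males alone it was 0.33 ± 0.07 with an adjusted p of 0.0180. The male call was lost without M_NM replicate 2 or 4, with adjusted p of 0.0617 to 0.0864, and in a fit of the males alone, with an adjusted p of 0.0939. It was also lost with no filter and with a block for replicate number. Among the fits that left out 1 library, the female call was reached without F_DM replicate 3, F_NM replicate 2 or M_NM replicate 1 or 4, with adjusted p of 0.0208 to 0.0497. A fit of the females alone reached it too. The response of females minus that of males was -0.09 ± 0.10, with an adjusted p of 0.906.

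Tek encodes TIE2, the endothelial receptor for the angiopoietins. It had 9.70, 10.7, 8.47, 8.82 and 8.56 FPKM in the F_DM hearts, against 7.55, 8.12, 7.99, 7.07 and 8.36 FPKM in the F_NM hearts. Male levels were 7.99, 9.25, 8.02, 7.69 and 9.02 FPKM in M_DM hearts, against 8.30, 8.04, 7.19 and 7.12 FPKM in M_NM hearts. The female groups did not overlap, and the male groups did. Over both sexes the log2 change was 0.17 ± 0.05 with an adjusted p of 0.0495 by limma, just inside the threshold. It was past the threshold in 16 of 32 alternatives, with adjusted p between 0.0217 and 0.128. The call was lost on leaving out F_DM replicate 1, 2 or 4, F_NM replicate 1, 2, 3 or 4, M_DM replicate 1, 2, 3 or 5, or M_NM replicate 2, 3 or 4, with adjusted p between 0.0517 and 0.113. It was also lost without the pair of F_NM libraries low in Ptprb. Neither sex alone passed, with log2 changes of 0.21 ± 0.07 (adjusted p = 0.0974, limma) in females and 0.12 ± 0.07 (adjusted p = 0.499, limma) in males.

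The angiopoietin and VEGF genes around these receptors were read from a list of 13 ligands and co-receptors, of which 12 were tested. Over both sexes 3 of them were higher in DM hearts and 0 lower, where 3.34% of all genes were higher and 2.33% lower. Angpt1, the ligand that activates TIE2, had 6.87, 7.24, 6.14, 6.82 and 5.91 FPKM in F_DM hearts, against 4.13, 4.25, 3.38, 4.38 and 4.29 FPKM in F_NM hearts. It had 6.45, 5.82, 5.68, 6.16 and 5.28 FPKM in M_DM hearts, against 5.66, 3.29, 5.20 and 4.23 FPKM in M_NM hearts. All F_DM hearts lay above all F_NM hearts, and the highest M_NM heart fell within the M_DM range. The log2 change of Angpt1 was 0.45 ± 0.07 (adjusted p = 0.000475, limma) over both sexes, and it passed in all 32 alternatives. Within females it was 0.58 ± 0.09 (adjusted p = 0.00205, limma), again past the threshold in all 32, while in males it was 0.32 ± 0.10 with an adjusted p of 0.123. Angpt1 is made largely by cells around the vessel: 8 pericyte and smooth muscle markers summed to 231 to 296 FPKM in F_DM hearts, 249 to 347 FPKM in F_NM hearts, 250 to 311 FPKM in M_DM hearts and 231 to 293 FPKM in M_NM hearts. Gene by gene, 1 of these 8 markers was higher in DM hearts over both sexes and 0 lower, with a median log2 change of -0.02. In males 0 of the 8 passed, 4 had an unadjusted p under 0.05, 6 had positive changes and the median was 0.22. Of the 10866 genes tested, 1480 had such an unadjusted p in males by limma. Their part in the result was not tested. Nrp1, the VEGF co-receptor neuropilin-1, averaged 4.55 ± 0.766 FPKM in DM hearts and 3.37 ± 0.408 FPKM in NM hearts, with a log2 change of 0.33 ± 0.05 (adjusted p = 0.000716). Vegfc, the growth factor of lymphatic vessels, averaged 1.89 ± 0.388 FPKM in DM hearts and 1.39 ± 0.297 FPKM in NM hearts, with a log2 change of 0.29 ± 0.07 (adjusted p = 0.0116).

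The VEGF receptors themselves did not pass in the comparison of microbiomes. Kdr, the main VEGF-A receptor, had a log2 change of 0.06 ± 0.06 over both sexes, and Flt1, which binds VEGF-A and limits its action, one of -0.10 ± 0.05. Tie1, the co-receptor of TIE2, had 0.05 ± 0.04. Ptprb encodes VE-PTP, the phosphatase that restrains TIE2. Its levels were 5.73, 1.96, 5.60, 2.28 and 5.89 FPKM in F_NM hearts, and F_NM replicates 2 and 4 were far below the rest, whereas all other libraries of the study had 4.82 to 6.39 FPKM. Its log2 change in females was 0.42 ± 0.20 with an adjusted p of 0.360.

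**Figure D2:**
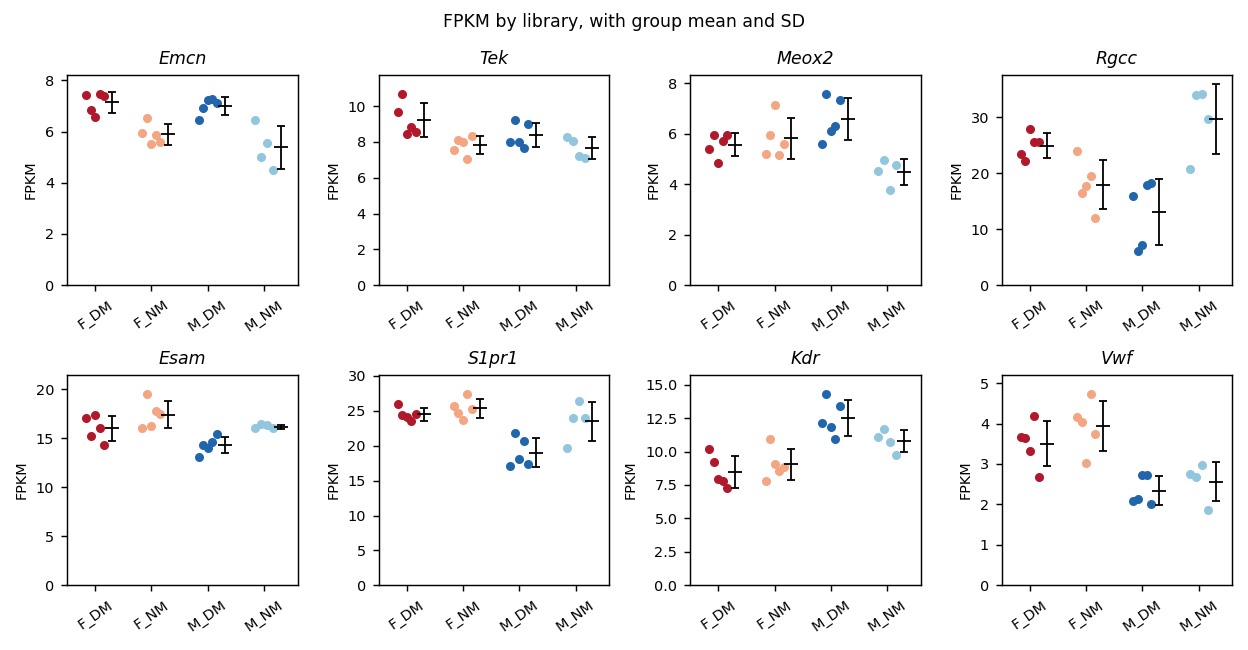
FPKM of Emcn, Tek, Meox2, Rgcc, Esam, S1pr1, Kdr and Vwf, with 1 point per library for the groups F_DM, F_NM, M_DM and M_NM from left to right; the black bar beside each group is its mean ± SD (n = 5, 5, 5 and 4), and each axis starts at 0. For Emcn the DM points of each sex sit above most NM points, and for Rgcc all M_DM points lie below all M_NM points.

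In males the microbiome comparison gave 2 members higher in DM hearts, Meox2 and Emcn, and 1 lower, Rgcc, where 1.91% of all genes passed, 0.957% higher and 0.948% lower. After median-ratio scaling 2 members were higher and 3 lower, and over all genes 123 were higher and 172 lower, against 104 and 103 without it. Without M_NM replicate 2, 3 or 4 only 1 member was higher; 0 were lower without M_DM replicate 3 or M_NM replicate 2 or 3, and 2 without M_DM replicate 4 or M_NM replicate 1. At an unadjusted p under 0.05 by limma there were 11 members, and 1480 of the 10866 genes tested. The median log2 change of the members was 0.02 and that of all genes 0.02.

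Meox2 is a homeobox transcription factor which, in mouse heart capillaries, works with Tcf15 on genes of fatty acid uptake. It had 5.58, 7.59, 6.10, 6.32 and 7.34 FPKM in the M_DM hearts, against 4.51, 4.96, 3.78 and 4.76 FPKM in the M_NM hearts. The male groups did not overlap. The log2 change was 0.46 ± 0.09 (adjusted p = 0.0122, limma), a ratio of means of 1.46, and it passed in 31 of 32 alternatives. The exception was the fit without M_NM replicate 3, with an adjusted p of 0.0561. In females Meox2 had 5.39, 5.95, 4.86, 5.70 and 5.94 FPKM in F_DM hearts, against 5.21, 5.96, 7.16, 5.17 and 5.58 FPKM in F_NM hearts, and the groups overlapped. The female log2 change was -0.05 ± 0.09 with an adjusted p of 0.901. The response of females minus that of males was -0.51 ± 0.13, with an adjusted p of 0.104, so a difference between the sexes was not established.

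Rgcc, a regulator of the cell cycle that is abundant in capillary endothelium, had 15.9, 6.17, 7.18, 17.8 and 18.3 FPKM in the M_DM hearts, against 20.7, 33.9, 34.2 and 29.7 FPKM in the M_NM hearts. All M_DM hearts were below all M_NM hearts. The log2 change was -1.22 ± 0.28 (adjusted p = 0.0370, limma), the largest in size among the members in males. It passed in 22 of 32 alternatives. The call was lost without M_DM replicate 2 or 3 or M_NM replicate 2, 3 or 4, with adjusted p between 0.0688 and 0.137, and in a fit of the males alone, with an adjusted p of 0.249. In females the levels were 23.4, 22.1, 27.9, 25.5 and 25.6 FPKM in F_DM hearts, against 24.0, 16.5, 17.7, 19.5 and 11.9 FPKM in F_NM hearts. There 3 of the 5 F_DM hearts were above all F_NM hearts, and the log2 change was 0.48 ± 0.27 with an adjusted p of 0.474. The fitted changes of the sexes had opposite signs, but the female one did not pass. Their difference was 1.70 ± 0.39 with an adjusted p of 0.0895 by limma, so a difference between the sexes was not established. Without M_DM replicate 5 that adjusted p was 0.0281. Sox18, a SOX factor of blood and lymphatic endothelium, had the same signs, with 0.47 ± 0.19 in females and -0.44 ± 0.21 in males, neither past the threshold. Hspb1, a small heat-shock protein outside the 34 members, was chosen after its values were seen. It had 59.4 to 158 FPKM in F_DM hearts, 30.4 to 52.8 FPKM in F_NM hearts, 29.8 to 86.8 FPKM in M_DM hearts and 80.5 to 146 FPKM in M_NM hearts. All F_DM hearts were above all F_NM hearts for Hspb1, while the male groups overlapped. Scand1, chosen in the same way, had 1.72 to 13.3 FPKM in F_DM hearts and 0.121 to 0.833 FPKM in F_NM hearts. In males Scand1 had 0.243 to 1.96 FPKM in M_DM hearts and 2.62 to 6.92 FPKM in M_NM hearts, without overlap. Chchd10, also so chosen, had 114 to 216, 56.3 to 72.3, 48.3 to 144 and 143 to 163 FPKM in F_DM, F_NM, M_DM and M_NM hearts. These genes are outside the 34 members, and their part in the result was not tested.

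Promoter sequences are shown for these 4 members because their levels carry the microbiome comparison. Windows of 300 bases, from 250 before to 50 after the start, came from RefSeq on GRCm38.p6, and 19 of the 34 members had 23 such windows. The letters searched on both strands were AGGAAG for ETS factors, ACAATG for SOX factors, AGATAA for GATA factors and GGGCGG for the GC box, and capitals mark the matches. The Emcn window is chr3:137340828-137341127 on the plus strand, that of Tek chr4:94739039-94739338 on the plus strand, that of Meox2 chr12:37108290-37108589 on the plus strand and that of Rgcc chr14:79301586-79301885 on the minus strand.
Emcn: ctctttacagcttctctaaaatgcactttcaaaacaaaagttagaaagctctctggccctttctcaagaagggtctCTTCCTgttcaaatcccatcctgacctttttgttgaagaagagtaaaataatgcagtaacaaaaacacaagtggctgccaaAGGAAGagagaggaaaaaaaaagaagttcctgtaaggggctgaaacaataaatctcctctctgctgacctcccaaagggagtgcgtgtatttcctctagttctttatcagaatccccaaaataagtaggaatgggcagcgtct
Tek: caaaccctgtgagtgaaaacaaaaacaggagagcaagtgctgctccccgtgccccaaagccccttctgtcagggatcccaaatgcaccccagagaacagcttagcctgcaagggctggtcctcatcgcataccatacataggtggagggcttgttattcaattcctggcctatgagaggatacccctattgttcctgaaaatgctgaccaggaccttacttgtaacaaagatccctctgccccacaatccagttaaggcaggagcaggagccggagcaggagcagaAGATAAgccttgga
Meox2: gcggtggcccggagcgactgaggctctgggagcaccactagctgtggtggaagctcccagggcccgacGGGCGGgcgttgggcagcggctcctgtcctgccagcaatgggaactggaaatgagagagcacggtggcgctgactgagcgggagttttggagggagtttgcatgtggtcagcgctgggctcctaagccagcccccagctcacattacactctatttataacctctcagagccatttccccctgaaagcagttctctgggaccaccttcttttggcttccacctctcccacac
Rgcc: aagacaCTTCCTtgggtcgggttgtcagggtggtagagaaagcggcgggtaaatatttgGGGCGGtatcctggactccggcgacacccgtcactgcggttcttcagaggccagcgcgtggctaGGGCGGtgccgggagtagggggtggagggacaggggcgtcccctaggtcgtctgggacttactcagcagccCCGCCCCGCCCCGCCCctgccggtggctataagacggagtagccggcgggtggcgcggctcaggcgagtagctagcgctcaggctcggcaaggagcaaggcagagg
The Emcn window held 2 ETS matches, that of Tek 1 GATA match, that of Meox2 1 GC box and that of Rgcc 1 ETS match and 5 GC boxes, of which 3 overlap end to end by a single base. An ETS match was in 52.2% of the member windows and in 35.4% of all 32851 windows, and a GC box in 43.5% of member windows and 35.7% of all. The SOX letters were in 4.35% of member windows and 12.6% of all, and the GATA letters in 8.70% and 11.2%. These are descriptions of letters, and the member windows had a median GC content of 59.0%, against 52.7% for all.

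In females 0 members were higher and 0 lower in DM hearts by limma, where 2.84% of all genes passed, 1.86% higher and 0.985% lower. At an unadjusted p under 0.05 by limma there were 5 members, and 1509 of the 10866 genes tested. The median log2 change of members was 0.00, and that of all genes 0.01. Emcn, Robo4 and Tek had the smallest p-values and groups that did not overlap. The share of all genes with groups that did not overlap is not given for any comparison. A lack of overlap, here and for every other gene named, is therefore a description only. Robo4, a receptor that stabilises the endothelial barrier, had 6.20, 6.22, 6.56, 6.15 and 5.75 FPKM in F_DM hearts, against 6.57, 6.87, 6.77, 7.28 and 6.93 FPKM in F_NM hearts. Its log2 change was -0.14 ± 0.04 with an adjusted p of 0.0868, and the closest hearts of the 2 groups differed by little.

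**Figure D3:**
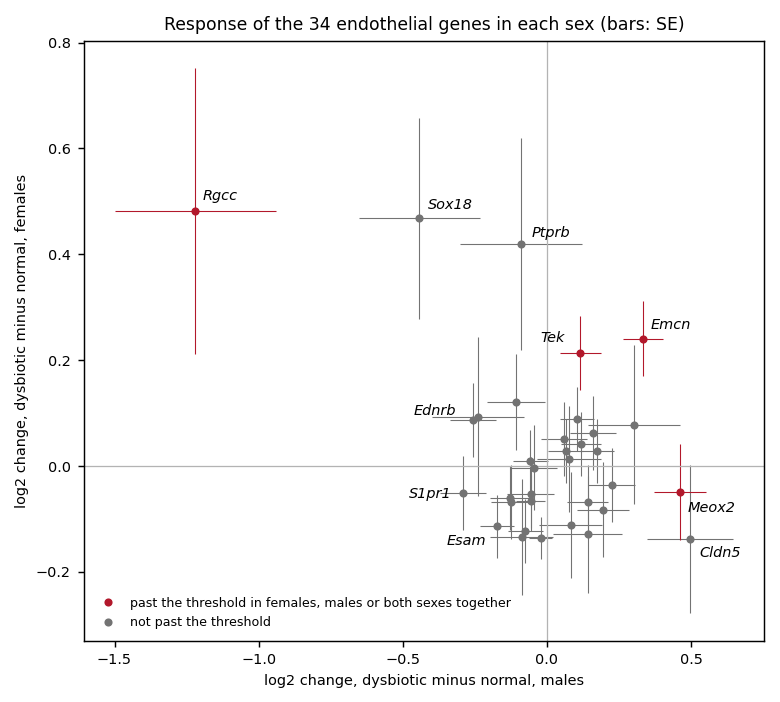
Log2 change of each of the 34 members, dysbiotic minus normal, in males on the x axis and in females on the y axis, with bars of ± 1 SE; red points passed the threshold in females, in males or over both sexes. Emcn and Tek lie in the upper right, Rgcc and Sox18 in the upper left, and Meox2 and Cldn5 at the lower right.

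The difference between the sexes in the response gave 0 members higher and 0 lower, where 0.396% of all genes passed by limma, 0.377% higher and 0.0184% lower. At an unadjusted p under 0.05 by limma there were 9 members, and 805 of the 10866 genes tested. After Rgcc and Meox2 the smallest p-values belonged to Ednrb with a difference of 0.34 ± 0.10 (adjusted p = 0.303), Sox18 with 0.91 ± 0.28 (adjusted p = 0.340) and Cldn5 with -0.63 ± 0.21 (adjusted p = 0.392). Ptprb, with its low F_NM libraries, had 0.51 ± 0.29 (adjusted p = 0.749). Cldn5, the main claudin of endothelial tight junctions, had 7.48, 5.97, 8.03, 7.28 and 11.3 FPKM in M_DM hearts, against 6.67, 5.43, 4.39 and 4.83 FPKM in M_NM hearts. Ednrb, the endothelin receptor type B, averaged 3.00 ± 0.305 FPKM in M_DM hearts and 3.80 ± 0.627 FPKM in M_NM hearts (SD, n = 5 and 4). Without M_NM replicate 4 the difference between the sexes for Ednrb had an adjusted p of 0.0283.

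Of the members that fell short over both sexes, Esam and S1pr1 came closest among those with lower levels. Esam is an adhesion molecule of endothelial tight junctions and platelets. It had 17.1, 15.2, 17.4, 16.0 and 14.3 FPKM in F_DM hearts, against 16.0, 19.5, 16.2, 17.8 and 17.5 FPKM in F_NM hearts. In males it had 13.1, 14.3, 14.0, 14.6 and 15.4 FPKM in M_DM hearts, against 16.0, 16.4, 16.3 and 16.0 FPKM in M_NM hearts. The male groups did not overlap, though the female ones did. In males the log2 change of Esam was -0.17 ± 0.06 with an adjusted p of 0.183 by limma. The log2 change over both sexes was -0.14 ± 0.04 with an adjusted p of 0.0543. It passed in 10 of 32 alternatives, among them the fits without F_DM replicate 1 or 3, F_NM replicate 1 or 3, or M_DM replicate 5, with adjusted p of 0.0344 to 0.0471. S1pr1, the receptor through which sphingosine phosphate tightens the barrier, had 17.1, 21.8, 18.1, 20.6 and 17.4 FPKM in M_DM hearts, against 19.6, 23.9, 26.4 and 24.0 FPKM in M_NM hearts. In females it averaged 24.5 ± 0.877 FPKM in F_DM hearts and 25.4 ± 1.38 FPKM in F_NM hearts (SD, n = 5 each). The highest M_DM hearts were above the lowest M_NM heart, so the male groups overlapped. The log2 change of S1pr1 was -0.17 ± 0.05 (adjusted p = 0.0650) over both sexes and -0.29 ± 0.08 (adjusted p = 0.0558) in males. Both passed the threshold without M_DM replicate 2 or 4 or M_NM replicate 1, with adjusted p of 0.00947 to 0.0486 over both sexes and 0.00902 to 0.0448 in males.

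The authors' deposited table compares the microbiomes with the sexes pooled, and its fold change is the ratio of mean FPKM in DM hearts to that in NM hearts. There, 1 member was up and 2 were down at a q under 0.05 in the authors' deposited table, where 1.80% of genes passed, 0.912% up and 0.885% down. In the authors' deposited table Emcn had a ratio of 1.25 with a q of 1.75e-06, Esam one of 0.897 with a q of 0.00342 and Pecam1 one of 0.925 with a q of 0.0233. Tek had a q of 0.0851 in the authors' deposited table, which marks 0 of the 34 members as significant.

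The remaining members did not pass in the comparison over both sexes, and their log2 changes ran from -0.11 for Vwf to 0.19 for Aplnr. Cdh5 had a log2 change of 0.10 ± 0.04, Pecam1 of -0.10 ± 0.04, and the surface proteins Cd34, Podxl, Icam2 and Plvap between -0.07 and 0.06. The ETS factors Erg and Fli1, which keep endothelial genes on, had 0.10 ± 0.04 and 0.08 ± 0.05, and Sox17 had 0.01 ± 0.07. Nos3, the endothelial nitric oxide synthase, had -0.09 ± 0.05, and the capillary channel Aqp1 had -0.06 ± 0.05. The Notch receptor Notch1 and its tip cell ligand Dll4 had -0.02 ± 0.04 and -0.01 ± 0.07. Aplnr, the apelin receptor, had 0.19 ± 0.11 and Eng 0.04 ± 0.05. Among the secreted and matrix proteins, Vwf, which tethers platelets, had -0.11 ± 0.08, Mmrn2 0.11 ± 0.05 and Egfl7 0.04 ± 0.07. The membrane protein Clec14a had 0.09 ± 0.05. Rasip1, which is needed for vessel lumens to form, had -0.02 ± 0.06. Of these genes, none passed the threshold in any of the 3 comparisons of microbiomes.

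Around the members, 11 lists of endothelial and vessel genes were read in the same fit, and the genes named here are those past the threshold over both sexes. In that comparison 3.34% of all genes were higher and 2.33% lower. Of 8 tested genes of nitric oxide and cyclic GMP signalling, 2 were higher in DM hearts and 0 lower. These were both subunits of soluble guanylate cyclase, the receptor for nitric oxide in vascular smooth muscle: Gucy1a1 averaged 3.47 ± 0.303 FPKM in DM hearts and 2.88 ± 0.288 FPKM in NM hearts, with a log2 change of 0.21 ± 0.05 (adjusted p = 0.00879), and Gucy1b1 had 0.20 ± 0.05 (adjusted p = 0.0119). Both passed in all 32 alternatives, and the changes of the pericyte and smooth muscle markers, given beside Angpt1, were not tested for a part in this. Of 8 tested partners of apelin, endothelin and sphingosine phosphate, 1 was higher, S1pr3, a sphingosine phosphate receptor, with 0.21 ± 0.05 (adjusted p = 0.0103). Of 8 flow-responsive factors, 1 was higher, Mef2c, a transcription factor of muscle and endothelium, with 0.45 ± 0.09 (adjusted p = 0.00650). Mef2c had 0.678, 1.55, 1.85 and 0.527 FPKM in the M_NM hearts, where replicates 1 and 4 were below all other libraries, and 2.17 to 2.74 FPKM in M_DM hearts. The female groups overlapped, with 2.06 to 2.54 FPKM in F_DM hearts and 1.78 to 2.35 FPKM in F_NM hearts. Of 10 genes listed for heart capillaries and lipid handling, 1 was lower and 9 did not pass. The lower 1 was Timp4, a metalloproteinase inhibitor and not itself a lipid gene. It averaged 6.37 ± 1.00 FPKM in DM hearts and 8.12 ± 0.900 FPKM in NM hearts, with a log2 change of -0.33 ± 0.07 (adjusted p = 0.00855).

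Among 8 tested arterial genes, 2 were higher in DM hearts, where 3.34% of all genes were higher and 2.33% lower. Gja5, a connexin of arteries and of the atria and conduction system, averaged 2.18 ± 0.648 FPKM in DM hearts and 1.50 ± 0.290 FPKM in NM hearts, with a log2 change of 0.33 ± 0.08 (adjusted p = 0.0173). Cxcl12, a chemokine, had 0.13 ± 0.04 (adjusted p = 0.0445) and passed in 12 of 32 alternatives. Its call was lost without any library except F_DM replicate 3, F_NM replicate 2, M_DM replicate 1 and M_NM replicate 1, with adjusted p between 0.0551 and 0.102. Of 6 tested lymphatic genes, 1 was higher and 1 lower, with opposite signs. Prox1, the factor that sets lymphatic identity and is also made by cardiomyocytes, averaged 4.50 ± 0.633 FPKM in DM hearts and 3.20 ± 0.345 FPKM in NM hearts, with a log2 change of 0.38 ± 0.06 (adjusted p = 0.000895). Lyve1, a hyaluronan receptor of lymphatic vessels and of resident macrophages, averaged 10.3 FPKM in DM hearts (range 9.08 to 13.6 FPKM) and 14.5 FPKM in NM hearts (range 10.3 to 17.2 FPKM), with a log2 change of -0.45 ± 0.08 (adjusted p = 0.00114). Both passed in all 32 alternatives. The macrophage markers summed to 57.2 to 62.7 FPKM in F_DM hearts, 59.3 to 68.7 FPKM in F_NM hearts, 53.2 to 63.0 FPKM in M_DM hearts and 51.3 to 62.3 FPKM in M_NM hearts, and their part in the result was not tested. By limma 0 of 13 Notch partners, 0 of 8 venous and endocardial genes, 0 of 5 activation and adhesion genes and 0 of 14 basement membrane and junction partners passed. At an unadjusted p under 0.05 by limma these lists had 2, 1, 2 and 6 genes, where 1889 of the 10866 genes tested had one.

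Tcf15, the partner of Meox2, was read within each sex because it passed in females. It had 1.85, 3.90, 5.01, 8.15 and 6.35 FPKM in F_DM hearts, against 1.37, 1.37, 2.31, 1.55 and 1.45 FPKM in F_NM hearts. Of the 5 F_DM hearts 4 were above all F_NM hearts, and the log2 change was 1.12 ± 0.25 (adjusted p = 0.0217, limma). It passed in 25 of 32 alternatives. The call was lost without F_DM replicate 5 or F_NM replicate 1 or 4, with adjusted p of 0.0562 to 0.0595, and also in a fit of the females alone and without the 4 libraries extreme in Alb (F_DM replicates 3 and 5, M_DM replicate 5 and M_NM replicate 1) or those low in Ptprb, with adjusted p up to 0.121. In males Tcf15 had 1.03, 1.00, 1.37, 1.08 and 2.09 FPKM in M_DM hearts, against 2.71, 2.74, 2.31 and 1.22 FPKM in M_NM hearts, with a log2 change of -0.48 ± 0.26 (adjusted p = 0.455). The difference between the sexes for Tcf15 was 1.60 ± 0.36 with an adjusted p of 0.0895 by limma. Scand1, Hspb1 and Chchd10, given beside Rgcc, were also higher in F_DM and in M_NM hearts, and their part in this was not tested. Within males, Nrp1 had 0.45 ± 0.08 (adjusted p = 0.00580) and passed in all 32 alternatives. Mef2c had 0.70 ± 0.13 in males (adjusted p = 0.0118) and passed in 30, but not in a fit of the males alone, with an adjusted p of 0.142, nor without the 4 libraries extreme in Alb. The low M_NM replicates 1 and 4 enter this male change of Mef2c.

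More members differed between the sexes than between the microbiomes, as did more of all genes. With both microbiomes together, 13 members were higher and 2 lower in the 10 female hearts than in the 9 male hearts, where 31.4% of all genes passed, 23.4% higher and 7.94% lower. The members' median log2 difference was 0.09, and that of all genes 0.04. After median-ratio scaling 9 members were higher and 3 lower. Centring each library on the members makes their mean equal in all libraries by construction, and 6 were then higher and 4 lower. With median-ratio scaling, 1782 of all genes were higher and 1753 lower, against 2548 higher and 863 lower without it. The same 19 libraries enter the comparisons of microbiomes.

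The junction and surface proteins had 5 of 9 members higher in females, namely Cldn5, Icam2, Cd34, Esam and Pecam1. Secreted Vwf, the membrane protein Clec14a, the receptors S1pr1, Eng, Robo4 and Tie1, and Aqp1 and Nos3 were higher as well. Of the 5 transcription factors 0 passed in either direction, and 1 had an unadjusted p under 0.05 by limma, as did 4588 of the 10866 genes tested. Vwf had the largest difference: in females it ran from 2.67 through a median of 3.70 to 4.73 FPKM, and in males from 1.86 through 2.67 to 2.97 FPKM. Of the 10 female hearts 9 were above all male hearts. The log2 difference of Vwf was 0.45 ± 0.08 (adjusted p = 0.000282, limma), and it passed in all 32 alternatives. Megakaryocytes and platelets also make Vwf, and their 7 markers summed to 4.65 to 10.9 FPKM in females and 6.45 to 18.3 FPKM in males, and their part in the result was not tested.

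Cldn5 was higher by 0.34 ± 0.10 (adjusted p = 0.0206), Icam2, an adhesion molecule for white blood cells, by 0.28 ± 0.08 (adjusted p = 0.0139) and S1pr1 by 0.23 ± 0.05 (adjusted p = 0.00226). Aqp1 ran from 126 through a median of 136 to 155 FPKM in females and from 97.8 through 120 to 133 FPKM in males, a log2 difference of 0.21 ± 0.05 (adjusted p = 0.00495). Of the 10 female hearts 7 were above all male hearts for Aqp1. Eng had 0.21 ± 0.05 (adjusted p = 0.00343), Clec14a 0.20 ± 0.05 (adjusted p = 0.00721), Cd34 0.18 ± 0.04 (adjusted p = 0.00102) and Nos3 0.17 ± 0.05 (adjusted p = 0.00668). The other 4 were Esam with 0.13 ± 0.04, Pecam1 with 0.12 ± 0.04, Robo4 with 0.12 ± 0.03 and Tie1 with 0.12 ± 0.04. Pecam1, Esam and Tie1 passed in 18, 20 and 14 of 32 alternatives. The Pecam1 call was lost without F_DM replicate 1, 2 or 4, F_NM replicate 2 or 4, M_DM replicate 1 or 2, or M_NM replicate 2 or 4, with adjusted p of 0.0565 to 0.0864. That of Esam was lost without F_DM replicate 1 or 3, F_NM replicate 2 or M_DM replicate 1, with 0.0560 to 0.0581, and that of Tie1 without F_DM replicate 1 or 2, F_NM replicate 2, 4 or 5, M_DM replicate 1 or 4, or M_NM replicate 2, 3 or 4, with 0.0572 to 0.0940.

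Kdr was lower in females. It had 10.2, 9.24, 7.94, 7.83 and 7.26 FPKM in F_DM hearts and 7.78, 10.9, 9.10, 8.52 and 8.87 FPKM in F_NM hearts, against 12.1, 14.3, 11.8, 10.9 and 13.4 FPKM in M_DM hearts and 11.1, 11.7, 10.7 and 9.72 FPKM in M_NM hearts. Of the 10 female hearts 8 were below all male hearts. Kdr averaged 8.76 ± 1.14 FPKM in females and 11.7 ± 1.41 FPKM in males (SD, n = 10 and 9). The log2 difference was -0.37 ± 0.06 (adjusted p = 0.000275, limma), past the threshold in all 32 alternatives. Ednrb was also lower in females, with a log2 difference of -0.18 ± 0.05 (adjusted p = 0.0138, limma). It had 2.58 to 3.24 FPKM in females and 2.63 to 4.33 FPKM in males. The Ednrb difference lay in the NM hearts, with means of 2.74 FPKM in F_NM and 3.80 FPKM in M_NM hearts. In DM hearts Ednrb averaged 2.98 FPKM in females and 3.00 FPKM in males.

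**Figure D4:**
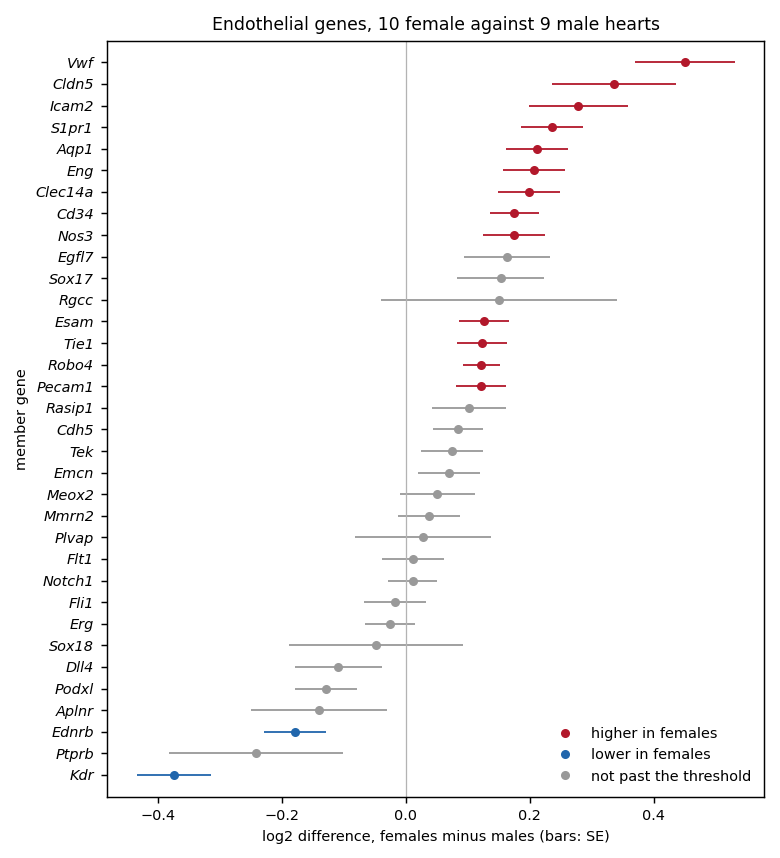
Log2 difference of each member, females minus males, with bars of ± 1 SE, ordered by size from the top; red marks members higher and blue those lower in the 10 female hearts at an adjusted p of 0.05, and grey the others. Vwf stands at 0.45 and Kdr at -0.37, and 13 members are red and 2 blue.

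Ligands and partners differed between the sexes in both directions, where 23.4% of all genes were higher in females and 7.94% lower. Of 12 VEGF and angiopoietin ligands and co-receptors, 2 were higher and 5 lower in females. Thbs1, the angiogenesis inhibitor thrombospondin-1, averaged 1.41 ± 0.385 FPKM in females and 2.82 ± 0.817 FPKM in males, with groups that did not overlap and a log2 difference of -0.65 ± 0.11 (adjusted p = 0.000267). Vegfb, a VEGF ligand abundant in cardiomyocytes, averaged 89.3 ± 5.91 FPKM in females and 76.0 ± 9.79 FPKM in males, with 0.24 ± 0.06 (adjusted p = 0.00376). Apln, the ligand of the member Aplnr, had -0.41 ± 0.06 (adjusted p = 8.37e-05), while Aplnr itself had -0.14 ± 0.11 (adjusted p = 0.333). Klf2, a factor induced by blood flow, averaged 17.7 ± 5.46 FPKM in females and 11.3 ± 0.940 FPKM in males, with 0.56 ± 0.12 (adjusted p = 0.00259). Car4, a carbonic anhydrase on heart capillaries, averaged 14.6 ± 1.07 FPKM in females and 10.5 ± 1.29 FPKM in males, with groups that did not overlap and 0.43 ± 0.06 (adjusted p = 1.54e-05). Of 8 arterial genes 3 were higher in females, led by the connexin Gja4 with 0.37 ± 0.06 (adjusted p = 9.30e-05), and of 8 venous and endocardial genes 4 were higher, among them Ephb4, the venous ephrin receptor, with 0.20 ± 0.04 (adjusted p = 0.00132). Of 14 basement membrane and junction partners 2 were higher, Hspg2, which is perlecan, with 0.35 ± 0.05 (adjusted p = 8.35e-05), and Jup, a catenin, with 0.23 ± 0.04 (adjusted p = 0.000124). Of 6 lymphatic genes 0 passed by limma, and 0 had an unadjusted p under 0.05, where 4588 of the 10866 genes tested had one.

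Summed markers of some other cell types were higher in females, and how many of their genes passed differed by cell type. Fibroblast markers, 8 genes, summed to 618 to 718 FPKM in females and 497 to 603 FPKM in males, but only 1 of the 8 passed, as higher, and their median log2 difference was 0.03. Adipocyte markers, 5 genes, summed to 15.1 to 61.7 FPKM in females and 2.59 to 20.2 FPKM in males, which overlap, and 1 of the 3 tested passed, as higher. Macrophage and monocyte markers, 8 genes, summed to 57.2 to 68.7 FPKM in females and 51.3 to 63.0 FPKM in males, which overlap. Of the 6 tested 3 passed, as higher, where 23.4% of all genes did. Their part in the differences of the members was not tested. The endothelial markers summed to 95.1 to 114 FPKM in females and 90.7 to 106 FPKM in males, which overlap. The geometric mean of the 34 members was 8.31 ± 0.365 FPKM in females and 7.85 ± 0.365 FPKM in males (SD, n = 10 and 9). It was 8.42 ± 0.299 FPKM in F_DM hearts and 8.19 ± 0.422 FPKM in F_NM hearts (n = 5 each), and 7.84 ± 0.357 FPKM in M_DM hearts and 7.86 ± 0.430 FPKM in M_NM hearts (n = 5 and 4).

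Members also differed in how steady they were between mice of a group. The within-group SD on the log2 scale ran from 0.05 for Robo4 to 0.43 for Rgcc, with a median of 0.12, and 20 of the 34 members were at or under that median when rounded. In some libraries most members lay on 1 side of their group mean. Above it were 29 of 34 in F_NM replicate 2 and 27 in M_NM replicate 1, against 4 in M_DM replicate 1 and 8 in M_NM replicate 4. The matching counts over all genes are not given. The male median log2 change of all genes, 0.021, was 0.041 without M_NM replicate 1, 0.034 without M_DM replicate 1 and 0.004 without M_NM replicate 4. The female one, 0.011, was 0.024 without F_NM replicate 2. A shift of all genes in these libraries was not separated from one of the members. In F_NM replicate 2 the exceptions included Ptprb, which was at 1.96 FPKM while Cldn5 was at 12.2 FPKM, the highest of any library. M_DM replicate 5 had the highest cardiomyocyte marker sum, 17166 FPKM, and the lowest Aqp1, and it was high in Cldn5, Sox18, Egfl7 and Rasip1.

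**Figure D5:**
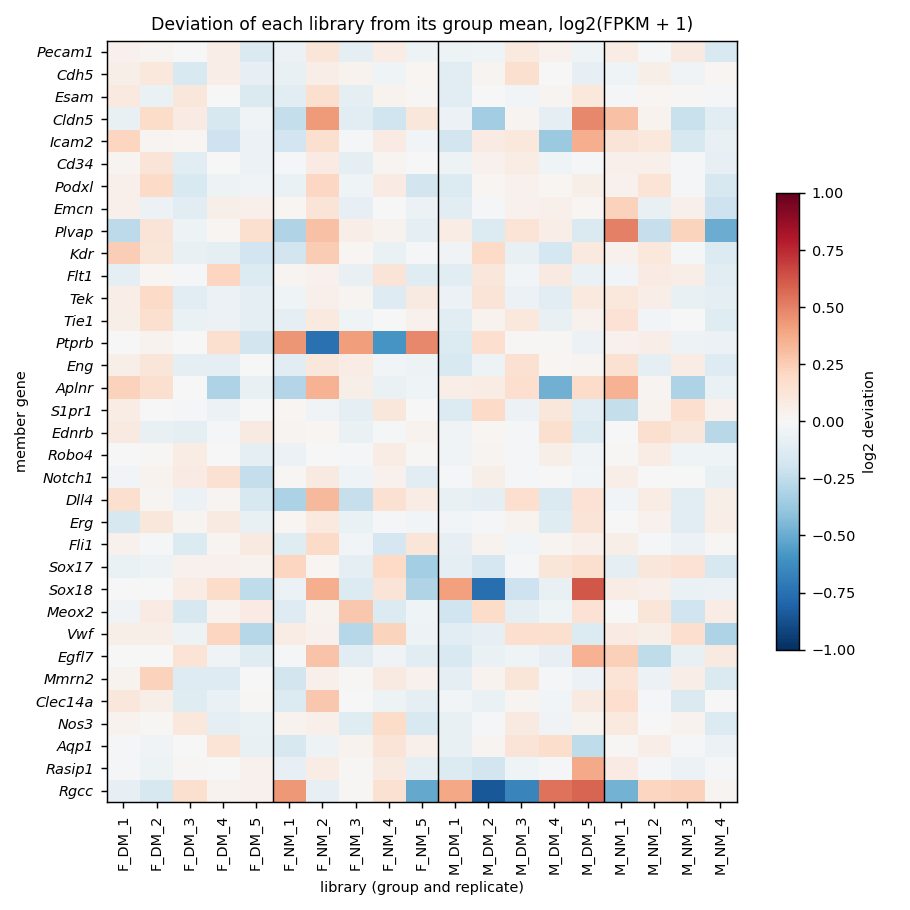
Deviation of each member in each library from its group mean on the log2(FPKM + 1) scale, red above and blue below, with black lines between the groups F_DM, F_NM, M_DM and M_NM. Ptprb in F_NM replicates 2 and 4, Sox18 in M_DM replicates 2 and 5 and Rgcc across the males show the strongest colours, and the F_NM replicate 2 column is red for 29 of 34 members.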

How the data were processed

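Heart RNA of 19 mice in 4 groups, taken from the sample labels, was measured by RNA-seq of poly(A)-selected libraries. The tools named per the submitters' processing notes are cutadapt 1.9, HISAT2 2.0.4 and StringTie 1.3.4d, and DESeq2 is listed too. The build given there is hg38, but 99.7% of the gene IDs are in the mouse annotation GENCODE M21, so coordinates are those of GRCm38. The authors deposited FPKM per gene and library, per the file headers, along with a fold change (ratio) and its log2 value, a p-value and a q-value for DM against NM. The deposited ratio equals that of the mean FPKM within 0.001, and the deposited q-value is a Benjamini-Hochberg adjustment of the p-value. No counts per gene were given, and steps between low values put 10.6% to 13.4% of them on whole fragments, which is too few to recover counts or depth; intervals for counting error are therefore left out.

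The 10866 genes that reached 1 FPKM in 4 or more libraries were tested on log2(FPKM + 1) with limma 3.58.1 (R 4.3.3), trend and robust empirical Bayes, 1 mean per group, two-sided, adjusted over all genes at 0.05. This pseudocount of 1 understates the change of low genes. The 5 comparisons share libraries. Summaries used Python 3.11.15 and pandas 2.3.3. The scripts were tested on simulated data. A count test had been planned in case counts were given.

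The members and lists were chosen with earlier results of these data known. Members were named in order of role, with full statistics for those past the threshold, and list genes by smallest p. Alternatives changed the scaling, filter, pseudocount, terms, weights, GC trend and libraries. Replicate numbers are shared by the groups, but the labels tie them to no litter or day, and same-numbered libraries did not deviate together (median correlation -0.032, 10 of 27 pairs over 0.1), so the fit has no block. No 2 libraries held identical values.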

Additional observations from a re-analysis of the deposited data

Results flagged for a closer look

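Of 136 combinations of member and group, 6 had 1 library far from the rest of its group by Dixon's test at 95%, a rate of the order that chance gives, about 1 in 20 groups. Podxl was low in M_DM replicate 1, at 15.0 FPKM against 16.9 to 17.4 FPKM in the other M_DM libraries. Aplnr was low in M_DM replicate 4, at 2.06 FPKM against 3.46 to 3.84 FPKM. Notch1 was high in M_DM replicate 2, at 1.82 FPKM against 1.67 to 1.71 FPKM. Egfl7 was high in F_NM replicate 2, at 18.1 FPKM against 13.5 to 14.5 FPKM, and in M_DM replicate 5, at 17.4 FPKM against 12.0 to 13.1 FPKM. Rasip1 was high in M_DM replicate 5, at 8.22 FPKM against 5.24 to 5.99 FPKM.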

How the results depend on the processing

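Over both sexes, against 2 higher and 0 lower, there was 1 higher with no filter and 1 higher without the F_NM libraries low in Ptprb; lower were 2 after median-ratio scaling, 1 after upper-quartile scaling, 2 with array weights, 1 with the GC trend removed, 1 centred on the members and 1 without the 4 libraries extreme in Alb. In females, against 0 and 0, higher were 1 after median-ratio scaling, 1 after upper-quartile scaling, 1 in a fit within the sex, 2 with array weights, 1 centred on the members and 2 without the Alb libraries, and lower were 1 after median-ratio scaling and 1 with array weights. In males, against 2 higher and 1 lower, higher were 1 with no filter, 1 within the sex and 4 centred on the members; lower were 3 after median-ratio scaling, 0 with no filter, 0 within the sex, 2 with array weights, 2 without the Alb libraries and 0 without those low in Ptprb. For the difference in response, array weights gave 1 higher. For females against males, against 13 higher and 2 lower, higher were 8 with the GC trend removed and 6 centred on the members, and lower were 4 centred on the members and 4 without the libraries low in Ptprb; centring gave a median of 0.022, against 0.093. The cause was not tested.

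The replicate block, which has no support in the pairing check (3 of 19 libraries were closest to a library of their own number), gave 1 member higher in females, which was Tek at an adjusted p just inside the threshold, and 1 higher and 0 lower in males; with the GC trend removed as well, it gave 0 lower in males, and 8 higher and 1 lower in females against males.

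Leaving out 1 library at a time gave 1 to 3 higher and 0 to 1 lower over both sexes (median -0.017 to 0.039), 0 to 1 higher and 0 to 0 lower in females (median -0.022 to 0.033), 1 to 2 higher and 0 to 2 lower in males (median -0.016 to 0.040), 0 to 1 higher and 0 to 0 lower for the difference in response (median -0.055 to 0.011), and 10 to 15 higher and 2 to 3 lower for females against males (median 0.078 to 0.111). Over all genes, median-ratio scaling gave 366 higher and 386 lower calls over both sexes, against 363 and 253. In females it gave 214 and 172, against 202 and 107, and in males 123 and 172, against 104 and 103. The Alb, Ptprb and member-centred alternatives were chosen after seeing the data. Gene by gene, no log2 change past the threshold changed sign in any alternative.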
